A study of Drosophila melanogaster with 8 samples.

Results

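SIN3 is the scaffold of a histone deacetylase complex. It carries no enzyme activity of its own, holds the deacetylase RPD3 and other subunits together, and is brought to chromatin by DNA-binding factors, most often near gene promoters. Drosophila cells make several SIN3 isoforms with different C-terminal ends, among them SIN3 220 and SIN3 187, and the study mapped both to ask where each one binds. The regions described here are the places where SIN3 220HA had a peak that passed the filters and SIN3 187HA had a peak too, but one that did not pass. Of 5810 filtered SIN3 220HA peaks, 1158 were of this kind, or 19.9% (95% interval 18.9 to 21.0%).

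The data are chromatin immunoprecipitation and sequencing (ChIP-seq) profiles from S2 cells, a cultured Drosophila embryonic line, with a stable transgene for SIN3 220 or SIN3 187, tagged with HA and driven by a metallothionein promoter. The SIN3 220HA line was not induced, because the promoter leaks, whereas the SIN3 187HA line was induced with copper, so the isoform and the induction cannot be told apart here. As the study describes, expression of SIN3 187HA also lowers the amount of SIN3 220 in the cell. There were 2 replicates each of the HA immunoprecipitate and of the input DNA for SIN3 220HA, and 2 replicates of each for SIN3 187HA, 8 samples in all, and no immunoprecipitate from untagged cells is among them. The authors joined the replicates before calling peaks, so each isoform has 1 unfiltered and 1 filtered list, no value has a spread between replicates, and no test between the isoforms was possible. Intervals are exact (Clopper-Pearson) 95% intervals that cover counting error alone.

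The sites were chosen by overlap between the lists. A filtered SIN3 220HA peak was taken if it shared 0 bp with every filtered SIN3 187HA peak and at least 1 bp with an unfiltered one. The other filtered SIN3 220HA peaks fell into 4293 shared peaks, which met a filtered SIN3 187HA peak (73.9%), and 359 unmatched peaks, which met no SIN3 187HA peak at all (6.18%). The filters, as the study describes them, were at least 3-fold enrichment over input and a limit on the irreproducible discovery rate (IDR), a measure of how well peak ranks repeat from replicate to replicate. The strength of the SIN3 187HA peak therefore chose the sites, and its fold enrichment and p-value are given as a description. Positions are in the dm3 build and count from 1.

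At each site the SIN3 187HA peak that shared most bases was taken as its partner. Partners of shared peaks were picked in the same way from the unfiltered list. Some of them had therefore not passed the filters themselves, the lowest at 2.30-fold. The partner fell below the lowest -log10 p-value kept in the filtered SIN3 187HA list (21.6) and not below 3-fold at 658 sites, or 56.8% (53.9 to 59.7%). It fell below both limits at 487 sites, or 42.1%, and below 3-fold alone at 11 sites. At the other 2 sites, both on 3L, the partner had a -log10 p-value of 21.6 and a fold enrichment of 4.19, the same as the weakest partner that was kept. Enrichment of at least 3-fold was thus present in the SIN3 187HA list at 660 of the 1158 sites (57.0%, 54.1 to 59.9%).

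Partners were spread widely below the limit. Their -log10 p-value had a median of 14.3 and quartiles of 10.4 and 18.1. It lay under 5 at 22 sites, between 5 and 10 at 235 sites, between 10 and 15 at 376 sites and between 15 and the limit, the widest band, at 512 sites. A partner within 10% below the limit was found at 168 sites (14.5%).

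**Figure D1:**
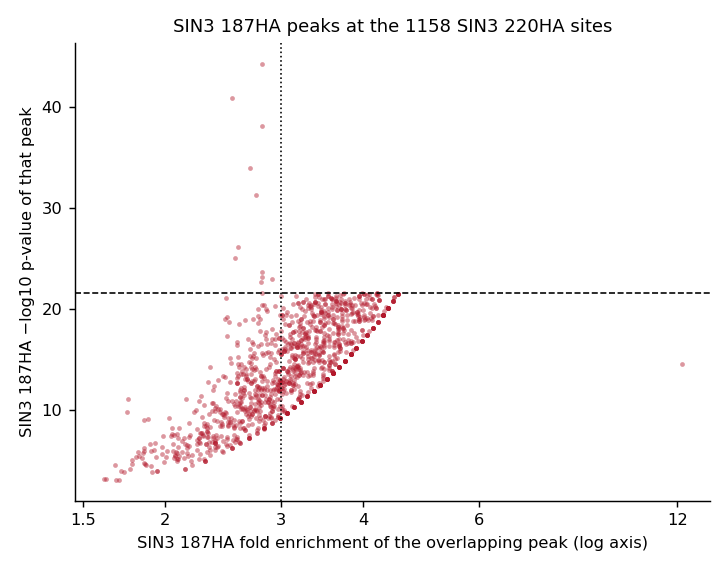
SIN3 187HA fold enrichment (log axis) against -log10 p-value for the partner peak at each of the 1158 sites, 1 point per site, with the lowest -log10 p-value kept in the filtered SIN3 187HA list (dashed line) and 3-fold enrichment (dotted line). Below the dashed line, 658 points lie at 3-fold or more and 487 under 3-fold. The point that stands apart at 12.2-fold has a fold enrichment and a p-value that cannot both hold at the backgrounds of that list.

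Sites near the limits of the rule were close to peaks that missed it. Just inside, the site on 3L at 5126992 to 5127577 had a partner at 2.91-fold with a -log10 p-value of 23.0. Just outside, the shared peak on 3L at 8668931 to 8669280 met a SIN3 187HA peak at 3.00-fold with a -log10 p-value of 29.8. The fewest bases shared between a site and its partner were 90 bp, on 3L at 7319322 to 7320009, and no site shared fewer than 50 bp. The unmatched peak nearest to an unfiltered SIN3 187HA peak, on X at 14136615 to 14136857, lay 83 bp from it.

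The SIN3 220HA signal at the sites was weaker than at shared peaks and much like that at unmatched peaks. The median SIN3 220HA fold enrichment was 4.58 at the sites (quartiles 3.89 and 5.62), 7.32 at shared peaks and 4.25 at unmatched peaks. With the filtered SIN3 220HA peaks cut into 4 bands of equal size by fold enrichment, the sites made up 38.7% of the lowest band, 28.6% of the second band, 10.9% of the third and 1.58% of the highest. Fold enrichment in the SIN3 187HA list reached or passed that in the SIN3 220HA list at 49 sites (4.23%, 3.15 to 5.56%), against 1468 shared peaks (34.2%, 32.8 to 35.6%). Because the rule took sites with a weak SIN3 187HA peak, this contrast was largely set in advance.

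The pileup of reads at each summit and the local input background were worked back from the deposited fold enrichment and p-value. The median SIN3 220HA pileup was 124 reads at the sites and 230 reads at shared peaks. The median SIN3 187HA pileup of the partner was 58.0 reads at the sites and 132 reads at shared peaks. Site by site, the SIN3 220HA pileup over the SIN3 187HA pileup had a median ratio of 2.15 at the sites and 1.74 at shared peaks. The SIN3 187HA pileup was solved from the values that chose the sites. The higher ratio at the sites thus follows largely from the rule and is given as a description. The background ratio had a median of 1.41 at the sites and 1.53 at shared peaks, so the SIN3 220HA background was the higher one in both classes. The lowest background in a list, which follows its depth, was 15.2 reads in the SIN3 220HA list and 12.1 reads in the SIN3 187HA list. At equal enrichment the list with more reads gives the smaller p-value, and the part of depth in the number of sites was not tested. When the SIN3 187HA list was lengthened to 5810 peaks, with the next peaks of at least 3-fold by -log10 p-value, 692 sites were left, and when the SIN3 220HA list was cut to the 4903 peaks of the SIN3 187HA list, 733 were left.

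Most of the strongest SIN3 220HA sites had partners that were far weaker. The ranking by SIN3 220HA and the rule largely set this in advance. On 3R at 18236175 to 18237938, SIN3 220HA reached 17.0-fold with a pileup of 517 reads, against 4.06-fold and 52 reads for SIN3 187HA. The third strongest site, on 3R at 18246386 to 18247496, was the next filtered SIN3 220HA peak along, 8447 bp away, with 13.6-fold and 353 reads for SIN3 220HA against 3.21-fold and 41 reads for SIN3 187HA. This stretch held SIN3 220HA peaks with no strong SIN3 187HA peak nearby, since the nearest filtered SIN3 187HA peaks lay 28919 and 24640 bp from the sites.

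A pair of the strongest sites lay on X. At 13021776 to 13023327 SIN3 220HA reached 16.8-fold and SIN3 187HA 4.29-fold, with summits 1 bp apart. At 13104416 to 13106570 SIN3 220HA reached 13.1-fold and SIN3 187HA 3.37-fold, with summits 653 bp apart, and the nearest filtered SIN3 187HA peak was 63875 bp away. The fifth strongest site, on 2R at 13455387 to 13456866, differed from these. It had 12.5-fold enrichment for SIN3 220HA and 12.2-fold for SIN3 187HA, with summits 4 bp apart. Its SIN3 187HA -log10 p-value was given as 14.6. That is below the 19.4 of the 4.29-fold partner on X, whose background of 12.1 reads was the lowest in the list. The 12.2-fold and the 14.6 cannot both hold at that background or above, and no whole pileup could be worked back from them. Whether this SIN3 187HA peak was weak is therefore not known.

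At the next 5 sites by SIN3 220HA fold enrichment, SIN3 220HA lay between 10.5-fold and 11.5-fold and the partner between 1.70-fold and 4.08-fold. The site on 3R at 16890559 to 16892512 met 3 SIN3 187HA peaks. Its partner had a -log10 p-value of 31.3 and a background of 64.1 reads, and missed the filter at 2.75-fold. The highest partner -log10 p-values below 3-fold, 44.3 on 3L at 3460059 to 3461966, 40.9 on 2R at 1641702 to 1642429 and 38.1 on 3R at 25601442 to 25602377, likewise came with SIN3 187HA backgrounds of 88.1, 108 and 74.8 reads, against a median of 17.6 reads over all sites. The SIN3 220HA backgrounds at those 3 sites were 66.5, 124 and 107 reads, against a median of 26.4 reads over all sites. These were sites of high input signal in both lines.

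Summits of the 2 isoforms lay close together at most sites, but less often than at shared peaks. A ChIP-seq summit is the base with the highest pileup in a peak. SIN3 220HA and SIN3 187HA summits were within 100 bp at 748 sites, or 64.6% (61.8 to 67.4%), against 3247 shared peaks, or 75.6% (74.3 to 76.9%), and 73.3% over all 5451 filtered SIN3 220HA peaks that met a SIN3 187HA peak. The median distance was 52.0 bp at the sites and 22.0 bp at shared peaks. Summits fell on the same base at 18 sites (1.55%) and at 210 shared peaks (4.89%).

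Few sites had summits that were far apart. Within 50 bp the shares were 49.4% of sites and 67.1% of shared peaks, and within 200 bp they were 80.5% and 82.6%. Summits were over 500 bp apart at 45 sites (3.89%, 2.85 to 5.17%), against 361 shared peaks (8.41%, 7.60 to 9.28%). Shared peaks were also wider, as given below, and the part of width in this difference was not tested. The longest distance among the sites was 2009 bp, on X at 8302719 to 8305073, where a SIN3 187HA peak of 3129 bp ran past the SIN3 220HA peak of 2355 bp.

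**Figure D2:**
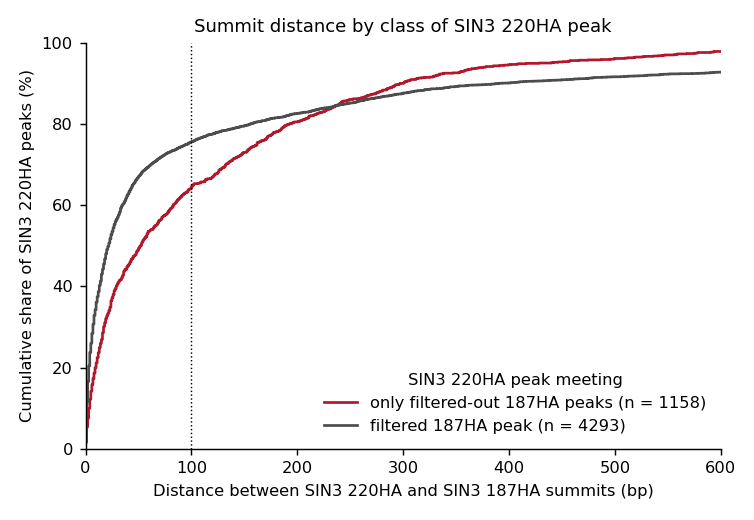
Cumulative share of filtered SIN3 220HA peaks (y axis, %) by distance between their summit and that of the SIN3 187HA partner (x axis, bp), for the 1158 sites and the 4293 shared peaks, with 100 bp marked by the dotted line. The curve of the sites is the lower one at short distances, with 64.6% against 75.6% at 100 bp, and the higher one at long distances, with 96.1% against 91.6% at 500 bp.

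The summit difference was not seen among the weakest peaks. In the lowest of the 4 bands of SIN3 220HA fold enrichment (3.00 to 4.53), summits were within 100 bp at 66.4% of 562 sites (62.3 to 70.3%) and at 63.8% of 674 shared peaks (60.0 to 67.4%). In the second band the shares were 64.8% of 415 sites (60.0 to 69.4%) and 72.8% of 923 shared peaks (69.8 to 75.7%). In the third band, 6.22 to 9.02, they were 57.0% of 158 sites (48.9 to 64.8%) and 75.6% of 1274 shared peaks (73.1 to 77.9%). Only 23 sites fell in the highest band, and their share of 69.6% has an interval of 47.1 to 86.8%. The share thus climbed with fold enrichment among shared peaks and did not over the lower 3 bands of the sites. The bands were set by SIN3 220HA alone, while the rule took weak SIN3 187HA partners in every band. The median SIN3 187HA pileup was 58.0 reads at the sites and 132 reads at shared peaks, and its part in the summit difference was not tested. At 98.2% of sites the SIN3 187HA summit lay inside the SIN3 220HA peak, and at 93.6% the SIN3 220HA summit lay inside the SIN3 187HA peak.

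The SIN3 220HA peak was the wider one at most sites. Its width had a median of 620 bp at the sites (quartiles 458 and 843 bp), against 422 bp for the SIN3 187HA partner (quartiles 294 and 580 bp). At shared peaks the medians were 970 bp for SIN3 220HA and 871 bp for SIN3 187HA. The width of the SIN3 220HA peak over that of its partner had a median of 1.43 at the sites and 1.09 at shared peaks. A called width grows with the number of reads above the threshold, so it is not independent of the peak strengths that chose the sites.

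The SIN3 220HA peak was at least 2 times as wide as its partner at 302 sites, or 26.1% (23.6 to 28.7%), against 316 shared peaks, or 7.36% (6.60 to 8.18%), and 11.3% of all 5451. It was at most 0.5 times as wide at 18 sites, or 1.55%, against 224 shared peaks, or 5.22%, and 4.44% of all 5451. The partner lay wholly inside the SIN3 220HA peak at 748 sites (64.6%) and at 46.9% of shared peaks, and the reverse held for 66 sites (5.70%) and 16.2% of shared peaks. At those 748 sites the SIN3 220HA peak ran past its partner by a median of 42.0 bp on the shorter side and 199 bp on the longer side. The sides were sorted by length at each site, so a difference between them was set in advance.

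**Figure D3:**
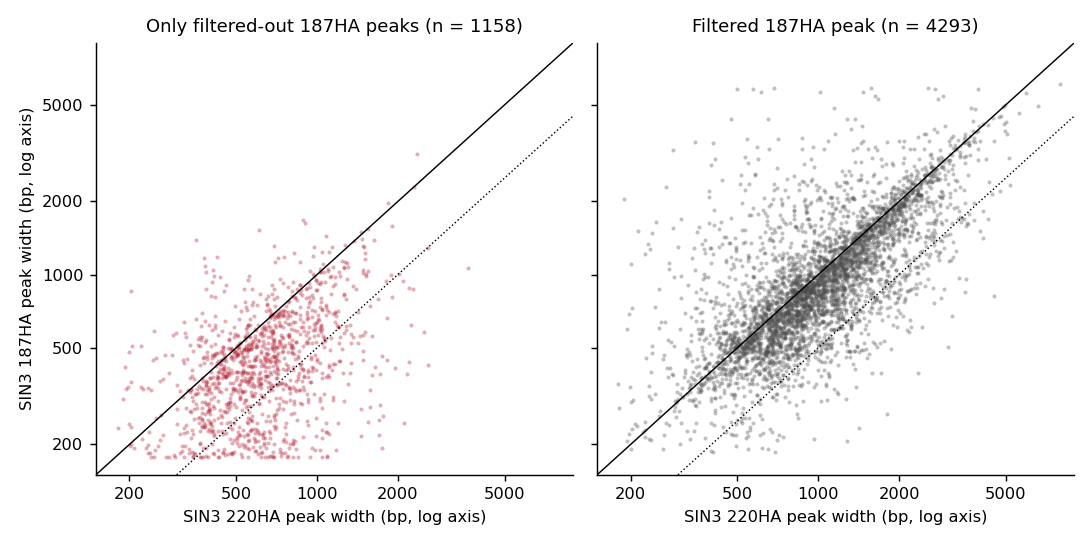
Width of the SIN3 220HA peak (x axis, bp, log axis) against that of its SIN3 187HA partner (y axis, bp, log axis) at the 1158 sites on the left and the 4293 shared peaks on the right, 1 point per peak. The solid line marks equal widths and the dotted line a SIN3 220HA peak 2 times as wide. Sites fall mostly under the solid line, and 26.1% lie on or under the dotted line, against 7.36% of shared peaks.

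The width ratio was above that of shared peaks in every band of SIN3 220HA fold enrichment. From the lowest to the highest band, its median was 1.38, 1.43, 1.53 and 2.58 at the sites, and 0.95, 1.05, 1.12 and 1.14 at shared peaks. The bands do not match the strength of the SIN3 187HA partner, which chose the sites. Higher ratios and narrow partners at the sites are thus partly set by the choice. Partners near the shortest width that the caller gives were common among the sites, with 99 partners (8.55%, 7 to 10.3%) of at most 200 bp, against 9 (0.210%) at shared peaks. The largest ratio was 8.96, on 2L at 13090068 to 13091806, where a SIN3 187HA peak of 194 bp lay in a SIN3 220HA peak of 1739 bp with summits 7 bp apart. The smallest was 0.24, on 2R at 5858187 to 5858388, where a SIN3 220HA peak of 202 bp met a SIN3 187HA peak of 856 bp.

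Most sites were single pairs of peaks. A single SIN3 187HA peak was met at 1056 sites, 2 were met at 94 sites and 3 at 8 sites. The 1158 sites met 1265 different SIN3 187HA peaks out of 4108 that were filtered out, and 3 of those peaks met more than 1 site. At least 2 SIN3 187HA peaks were met by 8.81% of sites (7.24 to 10.6%) and by 11.1% of shared peaks (10.1 to 12.0%).

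The sites lay among other SIN3 220HA peaks about as often as shared peaks did. Another filtered SIN3 220HA peak lay within 2 kb, edge to edge, of 581 sites, or 50.2% (47.3 to 53.1%), against 48.2% of shared peaks (46.7 to 49.7%), 51.3% of unmatched peaks (46.0 to 56.5%) and 48.8% of all 5810. The median gap to that neighbour was 1968 bp at the sites, 2184 bp at shared peaks and 1884 bp at unmatched peaks. The intervals of the 3 classes overlapped.

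A filtered SIN3 187HA peak, which by the rule does not touch the site, lay within 2 kb of 417 sites, or 36.0% (33.2 to 38.9%). The share was 33.1% of unmatched peaks (28.3 to 38.3%) and 35.3% of the sites and unmatched peaks together. At 5 kb the sites stood higher, with 61.8% (59.0 to 64.6%) against 52.6% of unmatched peaks (47.3 to 57.9%). The median gap was 3374 bp at the sites and 4242 bp at unmatched peaks. Within 20 kb the shares were 91.8% of sites (90.1 to 93.3%) and 84.4% of unmatched peaks (80.2 to 88.0%).

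**Figure D4:**
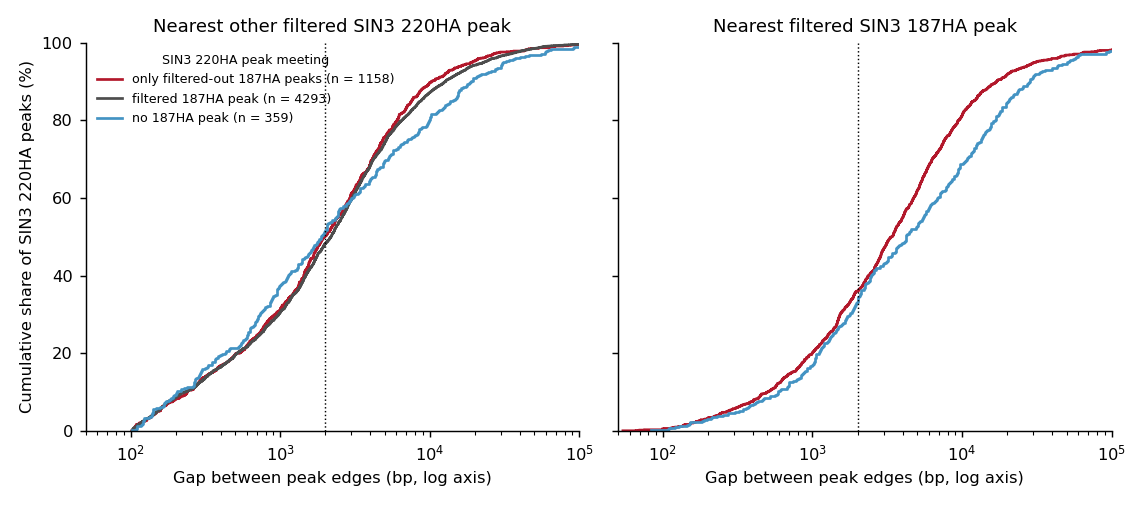
Cumulative share of filtered SIN3 220HA peaks (y axis, %) by the gap in bp (x axis, log axis) to the nearest other filtered SIN3 220HA peak on the left and to the nearest filtered SIN3 187HA peak on the right, with 2 kb marked by the dotted lines. On the left the curves of the 1158 sites and the 4293 shared peaks nearly coincide. On the right the sites lie slightly above the 359 unmatched peaks at 2 kb, with 36.0% against 33.1%, and further above at 5 kb, with 61.8% against 52.6%.

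Most neighbours of a site were shared peaks (69.7%). Of the filtered SIN3 220HA peaks directly beside a site along the chromosome, 23.8% were sites themselves (22.1 to 25.6%), against 21.1% of those beside an unmatched peak (18.2 to 24.3%) and 18.8% of those beside a shared peak (18.0 to 19.6%). Each pair of adjacent sites was counted from both sides, and each pair of a site and a shared peak entered the shares of both classes. The intervals are therefore too narrow and tied to one another, and no difference between the classes was read from them. Shared peaks flanked 576 sites (49.7%) on both sides. In order along the chromosomes, 681 sites stood alone, 145 runs held 2 sites, 42 held 3, 14 held 4 and 1 held 5.

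By chromosome, sites made up 18.1% of filtered SIN3 220HA peaks on 2L, 18.9% on 2R, 17.2% on 3L, 20.3% on 3R and 25.8% on X (243 of 942, 23.0 to 28.7%). The share over the 4 autosomal arms was 18.7% (17.6 to 19.8%). On chromosome 4 it was 10 of 27 peaks (37.0%, 19.4 to 57.6%). Sites on X had lower input backgrounds in both lists. The SIN3 220HA medians were 17.9 reads on X and 28.7 reads on the autosomal arms. The SIN3 187HA medians were 12.1 reads on X, equal to the lowest background in that list, and 19.0 reads on the autosomal arms. Fold enrichment was higher at the sites on X. The SIN3 220HA medians were 5.02 on X and 4.47 on the autosomal arms, and the SIN3 187HA medians 3.52 on X and 3.03 on the autosomal arms. The part of the background in the share on X was not tested.

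Genes were read on the first 10.25 Mb of 2L, where dm3 transcript positions from the annotation used in the study were at hand without a gap. This stretch held 99 sites, 404 shared peaks and 28 unmatched peaks. The SIN3 220HA summit lay within 500 bp of a transcription start at 72 of 99 sites, or 72.7% (62.9 to 81.2%), against 73.0% of shared peaks (68.4 to 77.3%), 28.6% of unmatched peaks (13.2 to 48.7%) and 70.6% of all 531. The median distance from the SIN3 220HA summit to the nearest start was 117 bp at the sites, 126 bp at shared peaks and 1690 bp at unmatched peaks. The sites were thus placed at promoters about as often as shared peaks, and their interval did not overlap that of the unmatched peaks.

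The share of sites at starts was also high at low enrichment. Among peaks under the median SIN3 220HA fold enrichment, 58 of 81 sites (71.6%, 60.5 to 81.1%) lay within 500 bp of a start, against 85 of 144 shared peaks (59.0%, 50.5 to 67.1%) and 8 of 26 unmatched peaks (30.8%, 14.3 to 51.8%). Of the 27 sites further away, 19 lay inside a transcript and 8 outside. The width ratio at the sites had a median of 1.32 near starts and 1.46 away from them, and summits were within 100 bp at 45 of 72 sites near starts (62.5%) and at 13 of 27 away from them (48.1%, 28.7 to 68.1%). Summits were within 100 bp at 77.3% of shared peaks near starts and at 67.9% of those away from them.

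Around promoters that face 1 way, the SIN3 220HA peak reached further than its partner at the median on both sides, and more so into the gene. At 55 of the 72 sites all starts within 500 bp were on 1 strand. These sites were picked by the SIN3 220HA summit, and the rule took weak SIN3 187HA peaks. Wider cover by the SIN3 220HA peak around the start is therefore partly set by the choice. The position 200 bp upstream of the start was covered by the SIN3 220HA peak at 63.6% of these sites and by the SIN3 187HA peak at 63.6%. The position 200 bp downstream was covered by the SIN3 220HA peak at 85.5% and by the SIN3 187HA peak at 56.4%. At 300 bp upstream the shares were 36.4% with the SIN3 220HA peak and 23.6% with the SIN3 187HA peak, and at 300 bp downstream they were 54.5% with the SIN3 220HA peak and 29.1% with the SIN3 187HA peak. The SIN3 220HA peak ran past its partner by a median of 66.0 bp on the downstream side and 21.0 bp on the upstream side, and the downstream overhang was the longer one at 36 of 55 sites (65.5%, 51.4 to 77.8%). At the 180 shared peaks of this kind, the position 200 bp downstream was covered by the SIN3 220HA peak at 88.9% and by the SIN3 187HA peak at 75%, and the position 200 bp upstream by the SIN3 220HA peak at 83.3% and by the SIN3 187HA peak at 78.9%.

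Summits were compared in the same way. The SIN3 220HA summit lay downstream of the start with the SIN3 187HA summit at or upstream of it at 18 of 55 sites (32.7%, 20.7 to 46.7%), and the opposite arrangement was found at 0 of 55 (0 to 6.49%), where 3 counts, a usual limit for a count of 0, would be 5.45%. At shared peaks the counts were 26 of 180 (14.4%, 9.66 to 20.4%) and 4 of 180 (2.22%). Relative to the start, with upstream positions negative, the median summit position at the sites was 50 bp for SIN3 220HA and -52.0 bp for SIN3 187HA. At shared peaks the SIN3 220HA median was 30.5 bp and the SIN3 187HA median -24.5 bp. Site by site, the SIN3 220HA position minus the SIN3 187HA position had a median of only 13.0 bp at the sites and 7 bp at shared peaks. The SIN3 220HA summit was the one further into the gene at 34 of 55 sites (61.8%, 47.7 to 74.6%), an interval that includes an even split, and at 117 of 180 shared peaks (65.0%, 57.6 to 71.9%).

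**Figure D5:**
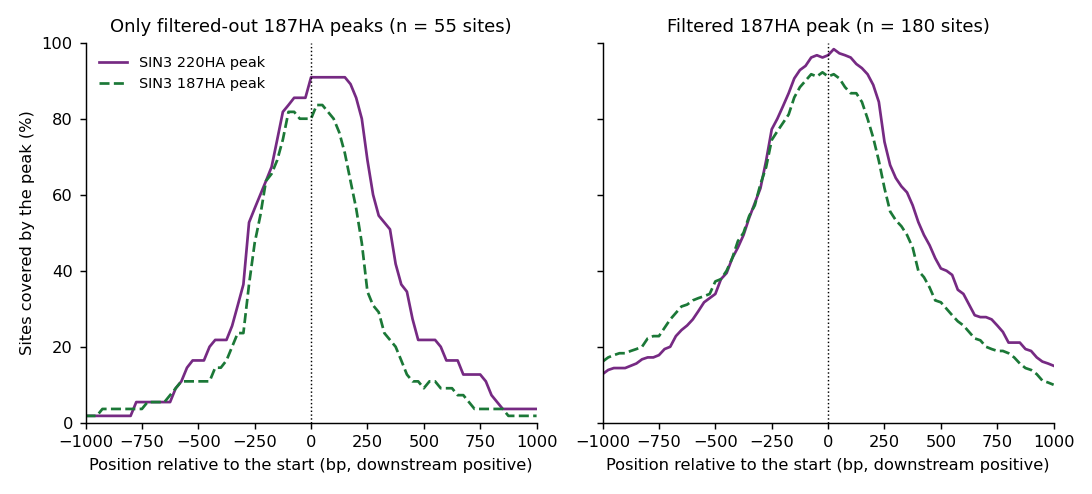
Share of peaks (y axis, %) that cover each position around the nearest transcription start (x axis, bp, downstream positive) on the first 10.25 Mb of 2L, for the SIN3 220HA peak (solid) and its SIN3 187HA partner (dashed), at 55 sites on the left and 180 shared peaks on the right whose starts are on 1 strand. At the sites the SIN3 220HA curve is the higher one over most of the range. The curves meet 200 bp upstream, at 63.6% each, lie apart at 300 bp upstream, with 36.4% for SIN3 220HA and 23.6% for SIN3 187HA, and lie further apart at 300 bp downstream, with 54.5% for SIN3 220HA and 29.1% for SIN3 187HA. At shared peaks the curves also lie further apart at 300 bp downstream, with 64.4% for SIN3 220HA and 53.3% for SIN3 187HA, than at 300 bp upstream.

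Starts on both strands, as at divergent gene pairs, lay within 500 bp of the summit at 17 of the 72 sites near a start (23.6%, 14.4 to 35.1%) and at 115 of 295 such shared peaks (39.0%, 33.4 to 44.8%). Below the median fold enrichment the shares were 19.0% of sites and 24.7% of shared peaks, with intervals that overlap. The strongest site with a named gene was such a pair, the start of CG3430 and that of CG13775 on 2L at 6956015 to 6957462, with 11.4-fold for SIN3 220HA and 4.08-fold for SIN3 187HA.

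Among the 25 strongest promoter sites were those of Scox, RFeSP and COX5B, which act in mitochondrial respiration. At Scox, which encodes a factor that helps assemble cytochrome c oxidase, and Polr1C, a subunit of RNA polymerases I and III, the peak at their common promoter at 4968707 to 4969395 was 7.18-fold for SIN3 220HA and 4.44-fold for SIN3 187HA. At RFeSP, the Rieske iron-sulphur subunit of respiratory complex III, the values were 7.02-fold for SIN3 220HA and 3.37-fold for SIN3 187HA, and the SIN3 187HA peak was 282 bp wide within a SIN3 220HA peak of 724 bp. At COX5B, a subunit of cytochrome c oxidase, they were 5.97-fold for SIN3 220HA and 3.20-fold for SIN3 187HA, with summits 325 bp apart. No list of respiration genes had been drawn up, so these genes were put together after the values were seen, and whether such genes were frequent among the sites was not tested.

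Other strong promoter sites are given singly. His3.3A, which encodes the replacement histone H3.3, had 6.60-fold for SIN3 220HA and 4.15-fold for SIN3 187HA close to the start of CG14036 on the other strand. Elp3, the catalytic subunit of Elongator, and morgue, which encodes a ubiquitin-conjugation protein that acts in cell death, lay at the same site with 7.27-fold for SIN3 220HA and 3.83-fold for SIN3 187HA. Der-1, a protein of endoplasmic reticulum-associated degradation, had 8.86-fold for SIN3 220HA and 4.21-fold for SIN3 187HA, with peaks of nearly equal width (351 bp for SIN3 220HA and 322 bp for SIN3 187HA). At the start of jet, an F-box gene of the light response of the circadian clock, SIN3 220HA reached 9.11-fold and SIN3 187HA 2.89-fold.

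Other named genes showed the range of shapes. At Marcal1, an annealing helicase, the peaks were 231 bp for SIN3 220HA and 193 bp for SIN3 187HA, with 7.32-fold for SIN3 220HA and 3.29-fold for SIN3 187HA. At Fkbp59, an FK506-binding protein, a SIN3 187HA peak of 188 bp lay in a SIN3 220HA peak of 591 bp, with 5.70-fold for SIN3 220HA and 2.97-fold for SIN3 187HA. At cpb, the beta subunit of actin capping protein, the summits lay 1 bp apart and the SIN3 187HA peak was the wider one, 611 bp against 549 bp for SIN3 220HA. The opposite layout was seen at CG11927, where the summits of peaks of 1470 bp for SIN3 220HA and 1400 bp for SIN3 187HA were 1022 bp apart. The SIN3 220HA summit lay 84 bp from the CG11927 start.

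Further starts among the 25 strongest promoter sites were those of CG11562, CG11885, CG13692, CG12795, CG7115, CG4036, CG13766, CG31637 and Jon25Bi, a serine protease gene, Nhe3, a sodium-proton exchanger, Dbp21E2, a DEAD-box protein, Nuf2, of the kinetochore, rost, of myoblast fusion, and Sem1, a small subunit of the proteasome lid. Over these 25 sites SIN3 220HA lay between 5.59-fold at CG31637 and 11.4-fold at CG3430. The partner was below 3-fold at CG11885 (2.47-fold), CG12795 (2.62-fold), CG4036 (2.66-fold), Sem1 (2.68-fold), CG13766 (2.80-fold), jet (2.89-fold) and Fkbp59 (2.97-fold).

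Genes were also counted by list. Of 1256 genes with a start in the stretch, 84 (6.69%) had a site within 500 bp and no shared peak, 408 (32.5%) had a shared peak, 10 had only an unmatched peak, and 754 had no filtered SIN3 220HA peak. Of 11 cytosolic ribosomal protein genes, RpL37A and RpL40 were at sites and 8 at shared peaks. RpL40, which encodes a ribosomal protein fused to ubiquitin, had 5.96-fold for SIN3 220HA and 4.31-fold for SIN3 187HA with summits 1 bp apart, and RpL37A had 4.88-fold for SIN3 220HA and 3.49-fold for SIN3 187HA. Of 7 mitochondrial ribosomal protein genes, mRpL10 and mRpL27 were at sites and 5 at shared peaks. At mRpL10 the isoforms were nearly level, with 3.58-fold for SIN3 220HA and 3.49-fold for SIN3 187HA, while at mRpL27, whose start lies 227 bp from the summit, they stood at 5.55-fold for SIN3 220HA and 3.18-fold for SIN3 187HA.

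Of 4 proteasome genes picked by the start of their symbol, a rule that leaves out Sem1, itself at a site, Rpn11, the deubiquitinase of the proteasome lid, was at a site, with 3.95-fold for SIN3 220HA and 3.68-fold for SIN3 187HA, and the other 3 had no filtered SIN3 220HA peak. Of 21 patterning and signalling genes, 0 were at a site only, 5 were at shared peaks (Mad, S, aop, tkv and ush) and 16 had no filtered SIN3 220HA peak. All 4 genes of central metabolism (Eno, Gpdh1, Pgk and Sam-S) were at shared peaks. Sam-S, S-adenosylmethionine synthetase and a locus that the study tested, had a site as well, at 106313 to 107016, where its start lay 239 bp from the SIN3 220HA summit and that of Nhe1 lay 54 bp from it, with 4.81-fold for SIN3 220HA and 3.12-fold for SIN3 187HA. With 11 genes or fewer in most lists, no difference between lists was read from these counts.

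The collagen IV locus held 4 sites. vkg and Col4a1 encode the chains of collagen IV, the main collagen of basement membranes, and lie head to head. The vkg start had a site at 5027142 to 5028004 with 4.65-fold for SIN3 220HA and 2.93-fold for SIN3 187HA, and summits 798 bp apart. The Col4a1 start had one at 5029325 to 5030184 with 3.98-fold for SIN3 220HA and 3.14-fold for SIN3 187HA, and a SIN3 187HA peak of 297 bp against 860 bp for SIN3 220HA. Inside vkg there were further sites at 5021657 to 5022678 and at 5023507 to 5025212. At the first SIN3 220HA had 4.67-fold and SIN3 187HA 4.46-fold, and at the second SIN3 220HA had 4.83-fold and SIN3 187HA 2.40-fold over 251 bp of a SIN3 220HA peak of 1706 bp. The sites were not all next to one another. An unmatched SIN3 220HA peak, at 5025791 to 5026871 with 5.21-fold, lay between the sites inside vkg and the one at its start, and another, at 5030514 to 5030857 with 4.62-fold, lay beyond the Col4a1 site. A shared peak, at 5010260 to 5011535 with 6.78-fold for SIN3 220HA, lay further along on the vkg side. This locus was singled out after its values were seen.

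The longest run of sites, 5 in a row, was also on 2L. It began inside CG3558 at 2994414 to 2994635, with 5.05-fold for SIN3 220HA and 3.75-fold for SIN3 187HA. It went on outside annotated transcripts at 2999074 to 2999511, with 3.82-fold for SIN3 220HA and 3.44-fold for SIN3 187HA. The remaining sites stood at divergent starts. At CG17224 and CG17264 SIN3 220HA had 5.46-fold and SIN3 187HA 2.49-fold. At Prp40 and alpha4GT1 SIN3 220HA had 4.92-fold and SIN3 187HA 3.14-fold, and at CG17219 and Sf3b2 SIN3 220HA had 4.63-fold and SIN3 187HA 3.95-fold. Prp40 and Sf3b2 encode proteins of the spliceosome. In all 5 sites the summits of the isoforms lay 16 to 32 bp apart. SIN3 187HA was the lower one in fold enrichment in each, which the rule largely set in advance. Over all sites, it reached or passed SIN3 220HA at only 4.23%.

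Of the 27 sites away from starts, the strongest lay in x16, which encodes a splicing factor, at 6918333 to 6919624, 578 bp from the nearest start, with 9.52-fold for SIN3 220HA and 3.64-fold for SIN3 187HA. Sites were also found inside Kr-h1, a transcription factor of the juvenile hormone response, with 6.02-fold for SIN3 220HA and 4.06-fold for SIN3 187HA, and inside tai, a coactivator of the ecdysone receptor, with 4.22-fold for SIN3 220HA and 3.22-fold for SIN3 187HA at 16245 bp from a start. A pair of sites lay inside E23, an ABC transporter gene, with 4.85-fold and 3.79-fold for SIN3 220HA, and 2.68-fold and 2.83-fold for SIN3 187HA. These genes fell outside the rule for named genes and were chosen after their values were seen.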

How the data were processed

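Reads that mapped uniquely to dm3 in the authors' Bowtie2 alignment went into MACS2 2.1.0 with input as control, duplicates retained and replicates joined. Read totals are not given in the sources used here. The deposited unfiltered lists hold positions, summits, a score, the ratio of pileup to background (fold enrichment) and -log10 p-values and q-values. The deposited filtered lists, recorded under input samples, hold positions alone, and the study gives their IDR threshold as 0.1 and as 0.1%. Amplified duplicates can raise a pileup.

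The sites and gene lists were chosen with earlier results of these data known. Filtered peaks were matched to unfiltered ones by position. Partners shared most bases. Pileups were solved from fold enrichment and Poisson p-value, taken as whole within 0.05, for all but 2 SIN3 220HA and 3 SIN3 187HA peaks. Of 1981 dm3 transcripts of the annotation used by the study, 1861 matched a symbol on 2L. A gene with sites and shared peaks was counted as shared. No sequence was analysed here.

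Named sites were the 10 of highest SIN3 220HA fold enrichment and those at the extremes of partner strength, width ratio, summit distance and run length. Named genes had a start within 500 bp of the 25 strongest such sites or were on a list. Python 3.11.15, numpy 2.4.6, pandas 2.3.3, scipy 1.17.1 and matplotlib 3.10.9 were used. A comparison with bedtools 2.31.1 found 0 peaks in another class, and code was tested on simulated data. Alternatives were other overlaps, thresholds, partners, distances and list lengths.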

Additional observations from a re-analysis of the deposited data

How the results depend on the processing

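No paired analysis was possible because each peak list was called on joined replicates, and no replicate could be left out for the same reason. The number of sites stayed within 1.5 times of 1158 under 5 alternatives (843 to 1146). It was 733 with the SIN3 220HA list cut to the length of the SIN3 187HA list and 692 with the SIN3 187HA list lengthened, an alternative chosen after seeing the data. The share with summits within 100 bp stayed within its interval under 7 alternatives, and limits of 50 and 200 bp gave 49.4 and 80.5%. The median width ratio was 1.37 with summed SIN3 187HA widths, 1.37 at 4-fold, 1.31 at 5-fold and 1.53 with the lengthened list, above 1 throughout. Another filtered SIN3 220HA peak lay within 1 kb of 31.2% and within 5 kb of 75.6% of sites, and an unfiltered one within 2 kb of 63.6%. A filtered SIN3 187HA peak lay within 1 kb of 20.1% and within 5 kb of 61.8%. The share near starts stayed within its interval under 4 alternatives (66.7 to 77.8%). Depth beyond the peak lists is unknown, copper induction differs between the lines, and only 99 sites could be placed on genes.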
